A study of Homo sapiens with 3 samples.

Results

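The libraries described are those of the control line of a prostate cancer study in which PC3-Luc cells with a control hairpin were sequenced beside cells with hairpins against CTHRC1. PC-3 is an androgen-independent prostate adenocarcinoma line first grown from a metastasis in bone. The Luc form was transfected with pMSCV-luc and so carries luciferase. The members were picked out by their label, and earlier results of these data were known when the choice was made. They are the 3 count columns named for the control hairpin, out of 9 columns in the deposited table, and the sample record lists them as 1 of 3 samples. The cells carried the shControl hairpin, were pre-cultured on plates for 24 h and gave total RNA that was treated with DNase I. Luciferase and the hairpin are therefore shared by all 3 control libraries. The vector of the hairpin and whether the line is 1 clone or a pool are stated nowhere in the labels. The levels of genes within this line were described, and no comparison with the CTHRC1 hairpin lines was made.

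Epithelial cells are held together by E-cadherin junctions and keratin filaments, whereas mesenchymal cells carry vimentin filaments and other cadherins. Most prostate adenocarcinomas depend on androgens, which drive secretory genes of the luminal cell. PC-3 is a standard model of prostate cancer that grows without androgens and can colonise bone, where secreted Wnt and BMP antagonists such as DKK1 and noggin act on bone-forming cells.

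The 3 libraries held 897752, 902424 and 1108960 counts, and 14612, 14677 and 15162 genes had at least 1 count in them. A level is given as CPM, the count of a gene scaled to the total of its library, and as mean ± SD over the 3 libraries. Nothing in the labels says that the libraries came from separate cultures, so the SD may be technical. A gene with no count in any library had a level of up to 1.03 CPM, the limit set by 3 counts over the summed total of 2909136, which covers counting error only. Of 21726 listed genes, 12333 had a count in every library, 8549 reached a mean of 10 CPM, 1795 reached 100 CPM and 116 reached 1000 CPM. Another 3863 listed genes had no count in the control libraries. The median was 3.50 CPM over all listed genes and 15.8 CPM over the 14123 protein-coding ones.

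A small number of genes held much of the RNA. The 10 highest genes took 14.7% of all counts, the 100 highest took 32.9% and the 1000 highest took 63.03%. Mitochondrial genome genes were 12 of the 20 highest. They took 14.4%, 15.1% and 16.4% of the counts in libraries 1, 2 and 3. The 83 measured ribosomal protein genes took 11.5%, 11.5% and 11.02%, and 47 of them were among the 100 highest genes. Among nuclear genes alone, the 10 highest held 4.89% and the 100 highest held 22.5% of the nuclear counts.

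**Figure D1:**
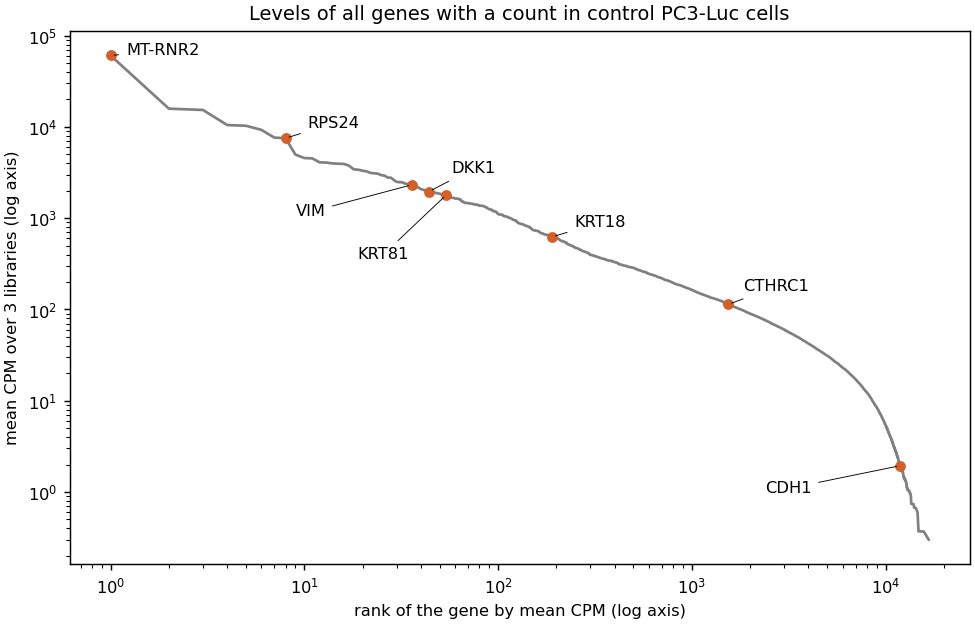
Mean CPM over 3 libraries (log axis) against the rank of the gene (log axis), for all genes with a count, with named genes as points. VIM, DKK1 and KRT81 lie together at ranks 36, 44 and 54, KRT18 is at rank 190, CTHRC1 at rank 1543, and CDH1 lies near 2 CPM.

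Of the 5 genes that mark the line, 4 stood among its 200 highest genes and CTHRC1 stood lower. VIM, the intermediate filament protein vimentin, was at 2309, 2303 and 2372 CPM in libraries 1, 2 and 3, from 2073, 2078 and 2631 counts. The 3 values were close, and the mean was 2328 ± 38.6 CPM at rank 36. DKK1, a secreted antagonist that blocks the Wnt co-receptors LRP5 and LRP6, was at 1841, 2122 and 1905 CPM, with library 2 the highest and a mean of 1956 ± 147 CPM at rank 44. KRT81, a type II hair keratin, was at 1793, 1866 and 1727 CPM, with a mean of 1795 ± 69.6 CPM at rank 54. Its position in single libraries ran from rank 49 to rank 55. KRT18, the type I keratin of simple epithelia, was at 608, 642 and 617 CPM and averaged 622 ± 17.4 CPM at rank 190. CTHRC1, a secreted glycoprotein of the matrix that is known to act in Wnt planar polarity signalling, was at 98.02, 129.7 and 114 CPM from 88, 117 and 126 counts. Library 1 was the lowest and library 2 the highest, and the mean of 114 ± 15.8 CPM gave rank 1543, above 92.9% of listed genes. In GENCODE v29 on GRCh38 the genes span chr10:17228259-17237593 (VIM), chr10:52314296-52318042 (DKK1), chr12:52285913-52291534 (KRT81), chr12:52948871-52952901 (KRT18) and chr8:103371515-103382997 (CTHRC1), with KRT81 on the minus strand and the others on the plus strand.

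**Figure D2:**
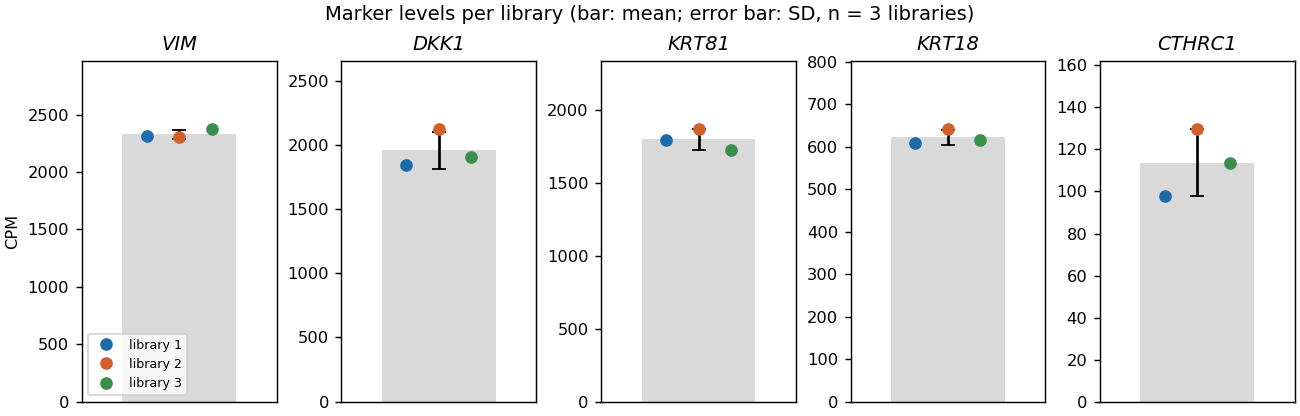
CPM of the 5 marker genes in each of the 3 control libraries (points), with the mean (bar) and SD (error bar). Each panel has its own axis from 0, and the points of VIM lie closest together relative to their mean while those of CTHRC1 lie farthest apart.

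Longer transcripts can give more reads, so ranks and orders by CPM do not allow for length, and the size of a difference between genes is given only on the scale of CPM per kilobase of exon. On that scale KRT81 was at 931 ± 36.1 and DKK1 at 887 ± 66.7 CPM per kilobase, at ranks 41 and 45. VIM was at 451 ± 7.48 CPM per kilobase, at rank 99. KRT81 thus exceeded VIM 2.06 ± 0.11-fold per kilobase, and DKK1 exceeded VIM 1.97 ± 0.16-fold, with every library above 1 for both ratios. These and all later folds per kilobase take the union of exons as length, and their size depends on that choice. Per kilobase of the longest transcript, KRT81 and VIM stood closer, at ranks 68 and 77, with DKK1 at rank 53. KRT18 was at 0.428 ± 0.016 of VIM per kilobase. DKK1 exceeded CTHRC1 13.9 ± 1.0-fold per kilobase, from 13.2 to 15.1 in single libraries. The order among close neighbours was not resolved. The 2 genes on either side of each marker in the order per kilobase overlapped it in their library values, except TUBB at 430 ± 10.7 CPM per kilobase, which lay below every VIM value.

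KRT81 has close relatives in the type II keratin cluster on chromosome 12, and its level may depend on how reads were shared among them. The coding sequence of KRT81 is 93.7% identical to that of KRT86 and 93.3% identical to that of KRT83 in GENCODE v29. The longest identical run was 605 bases with KRT86 and 95 bases with KRT83. Of 1254 windows of 75 bases, the read length, 612 (48.8%) had no difference between KRT81 and KRT86. The stretch below is the one in which KRT81 and KRT86 differ most, and shows where a single read can tell them apart. It covers KRT81 coding bases 1251 to 1325, counted from the A of the start codon, on the coding strand, beside the aligned KRT86 bases, with the 18 differing bases in capitals.
KRT81: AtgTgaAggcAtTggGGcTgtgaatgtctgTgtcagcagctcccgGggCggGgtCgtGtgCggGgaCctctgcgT
KRT86: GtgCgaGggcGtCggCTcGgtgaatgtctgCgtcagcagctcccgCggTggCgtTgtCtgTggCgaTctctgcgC
The deposited table gives KRT86's identifier 0 counts in all 3 libraries and KRT83 0, 4 and 4 counts, against 1610, 1684 and 1915 for KRT81. How the authors' counting treated reads that fit both KRT81 and KRT86 is stated nowhere in the labels, so the KRT81 level may hold reads of KRT86. Of the 75-base stretches of the longest KRT81 transcript, 33.0% also occur in KRT86 transcripts. For KRT18, 14.5% occur on the opposite strand in KRT8, and the shares with any other gene on either strand were 4.98% for VIM, 8.04% for DKK1 and 0 for CTHRC1.

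The highest nuclear gene by CPM was RPS24, a protein of the small ribosomal subunit, which was at 7696, 7651 and 7214 CPM and averaged 7520.1 ± 266 CPM. HSP90AA1, the stress-inducible cytosolic HSP90 chaperone, followed at 4754, 4358 and 4579 CPM. S100A6, a calcium-binding protein known for its abundance in epithelial tumours, was at 4137, 4169 and 3905 CPM and was the highest nuclear gene per kilobase, at 4192 ± 149 CPM per kilobase. PABPC1, the poly(A)-binding protein, averaged 3977 ± 253 CPM. Ribosomal protein genes filled 15 of the 25 highest nuclear places, and below RPS24 they ran from RPLP0 at 3952 ± 125 CPM to RPLP2 at 2284 ± 142 CPM. RPS14, at 2923, 2999.7 and 2953 CPM, was close in the 3 libraries, while RPS24 and RPLP2 were among the genes called between libraries by the chi-square test described further on. RACK1, a scaffold of the small subunit, was at 2779 ± 68.4 CPM. APOBEC3C, a cytidine deaminase of the antiviral APOBEC3 family, was at 3059, 3199 and 3130.0 CPM, at rank 22 overall and rank 30 per kilobase, just above ENO1 in the order by CPM. TPT1, the translationally controlled tumour protein, was at 2482 ± 93.4 CPM and ACTB, the cytoplasmic actin, at 3073 ± 216 CPM. The highest nuclear genes per kilobase after S100A6 were RPS12 at 2344 ± 26.9 and TMSB10, an actin-binding thymosin, at 2112 ± 146 CPM per kilobase.

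The gene lists below were described by how many measured members reached 10 CPM, a level that 58.4% of protein-coding genes in the table reached, and by their medians beside the coding medians of 15.8 CPM and 2.72 CPM per kilobase. Members are named in their order by CPM. Of 548 genes in 33 lists, 438 were measured and 264 reached 10 CPM. The list genes that were not measured are not analysed here.

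**Figure D3:**
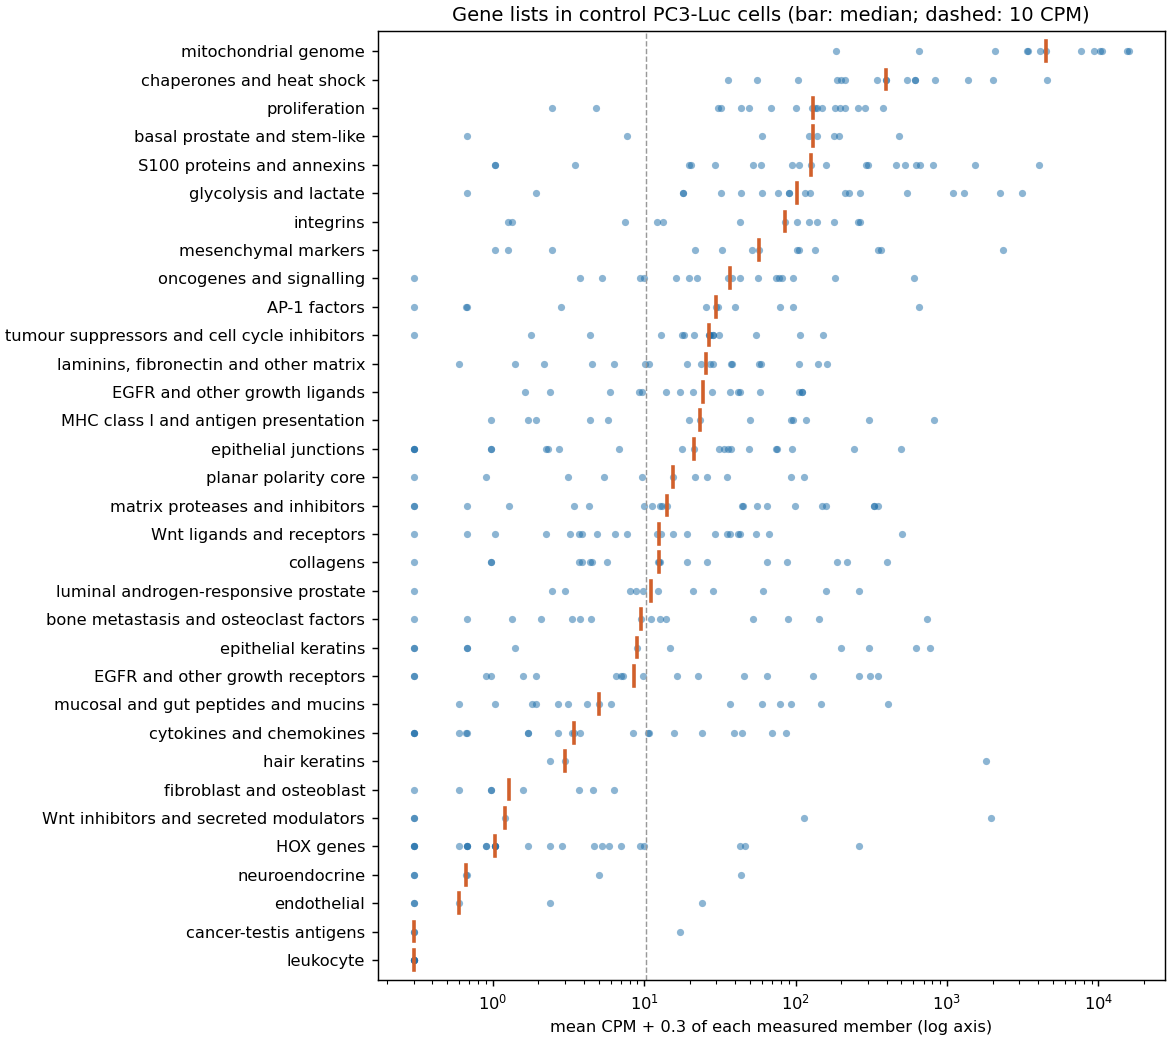
Mean CPM + 0.3 (log axis) of each measured member of the 33 gene lists (points), with each list's median (bar) and 10 CPM (dashed line), ordered by median. The mitochondrial genome, chaperone and proliferation lists lie highest, and all 5 measured leukocyte markers lie at 0.

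Epithelial keratins and junction genes ranged from high levels to 0. Of 11 measured epithelial keratins, 5 reached 10 CPM. KRT19, a type I keratin of simple epithelia, was at 808, 810.0 and 691 CPM, KRT7 at 323, 304 and 293 CPM and KRT8, the usual partner of KRT18, at 208, 223 and 164 CPM. Library 3 was the lowest of the 3 for each of them. KRT18 exceeded KRT8 6.81 ± 1.06-fold per kilobase of the union of exons, and no other length measure was tried for this ratio. The basal and squamous keratins KRT5 and KRT6A had 1 count each over all libraries, and KRT4 and KRT13 had none, while the basal keratin KRT15 was at 14.5 ± 1.91 CPM. Of 3 measured hair keratins, KRT81 alone reached 10 CPM, with KRT34 at 6 counts in all.

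Of 21 measured junction genes, 12 reached 10 CPM and the medians were 21.2 CPM and 2.49 CPM per kilobase. CTNNB1, beta-catenin, was at 454, 539 and 493 CPM. The claudins CLDN4 and CLDN3 were at 241 ± 30.96 CPM and 73.5 ± 16.05 CPM, desmoplakin (DSP) at 94.95 ± 10.4 CPM, the scaffold TJP1 at 74.7 ± 5.93 CPM and EPCAM at 37.1 ± 7.13 CPM. CDH1, which encodes E-cadherin, had 2, 0 and 4 counts in libraries 1, 2 and 3, a mean of 1.94 ± 1.82 CPM. Occludin (OCLN), claudin 1 (CLDN1) and claudin 7 (CLDN7) averaged 2.01, 2.46 and 0.672 CPM. The epithelial splicing regulator ESRP1 had 0, 1 and 1 counts, and the transcription factor GRHL2, which maintains epithelial genes, had none. CTNNA1, which encodes the alpha-catenin that ties cadherins to actin, also had no count in any library. PC-3 is known as a line that lacks alpha-catenin.

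Of 13 measured mesenchymal markers, 10 reached 10 CPM. Their medians were 57.2 CPM and 10.4 CPM per kilobase. Below VIM came CDH11, osteoblast cadherin, at 343, 338 and 424 CPM, and the receptor kinase AXL at 305, 403 and 333 CPM. CDH2, which encodes N-cadherin, was at 137, 135 and 131 CPM. Per kilobase, CDH1 was at 0.0117 ± 0.011 of CDH2, with no overlap between libraries, while the ratio of CDH11 to CDH2 was 1.02 ± 0.16. The calcium-binding protein S100A4 was at 105 ± 16.6 CPM, caldesmon (CALD1) at 102 ± 6.47 CPM and fibronectin (FN1) at 57.2 ± 8.11 CPM. Among the transcription factors that repress E-cadherin, TWIST1 was at 51.05 ± 4.02 CPM, ZEB1 at 32.5 ± 2.47 CPM and SNAI2 at 21.4 ± 1.80 CPM. ZEB2 and SNAI1 had 3 and 2 counts in all.

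**Figure D4:**
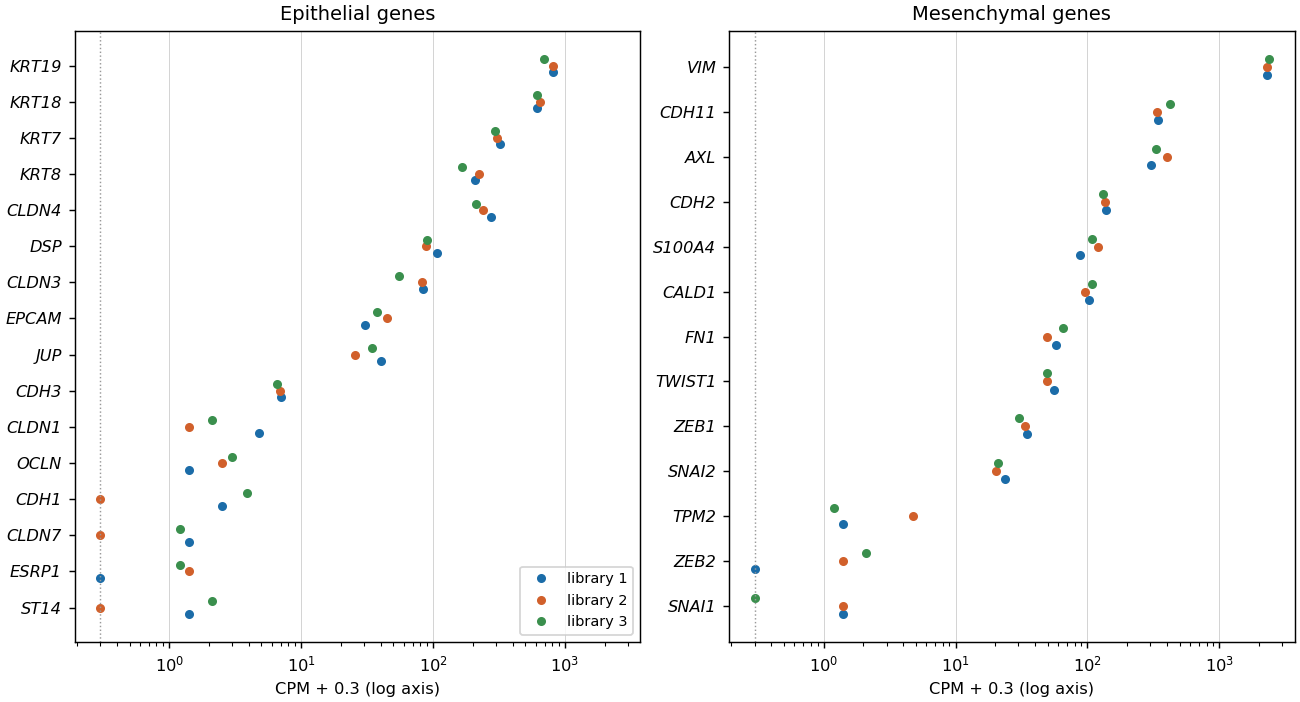
CPM + 0.3 (log axis) of epithelial genes (left) and mesenchymal genes (right) in the 3 control libraries, with the dotted line at a level of 0. KRT19 and KRT18 lie above 600 CPM while CDH1, CLDN7, ESRP1 and ST14 lie below 4 CPM, and VIM lies above every other gene shown.

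In the luminal, androgen-responsive prostate list, TMPRSS2 and ACPP had at most 4 counts in a library, while HOXB13 and FOXA1 were above 100 CPM. Of its 12 measured genes, 6 reached 10 CPM, with medians of 10.8 CPM and 2.03 CPM per kilobase. The androgen-responsive serine protease gene TMPRSS2 had 2, 2 and 4 counts, and prostatic acid phosphatase (ACPP) had none. The homeobox gene HOXB13, a marker of prostate lineage, was at 246, 286 and 253 CPM and the pioneer factor FOXA1 at 154, 161 and 159 CPM. PMEPA1, an inhibitor of TGF-beta signalling, was at 60.9 ± 4.91 CPM. HOXB13 was also the highest of 25 measured HOX genes, of which 3 reached 10 CPM. The other 2 were the posterior genes HOXA9 at 45.8 ± 8.04 CPM and HOXA13 at 42.7 ± 10.7 CPM, and 13 HOX genes were under 1 CPM.

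Of 8 measured genes of the basal and stem-like prostate cell, 6 reached 10 CPM, with medians of 129.6 CPM and 19.01 CPM per kilobase. ALDH1A3, a retinaldehyde dehydrogenase, was at 452, 494 and 492 CPM. The hyaluronan receptor CD44 was at 194 ± 10.7 CPM, and the laminin and collagen receptor subunits ITGA2 and ITGB4 were at 179.7 ± 13.9 CPM and 138 ± 8.33 CPM. The defining basal keratin KRT5 had 1 count in all, and the members above 100 CPM are ones that other epithelia also express.

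Markers of other cells were at or near 0 apart from PECAM1 and ENO2. These are bulk libraries, in which a few cells with much RNA and many cells with little cannot be told apart. The leukocyte markers PTPRC, CD14, CD74, ITGAM and CD8A had no count in any library. Of 5 measured endothelial markers, PECAM1 was at 23.7 ± 2.36 CPM, KDR had 6 counts, TIE1 had 1 and TEK and CLDN5 had none. None of 8 fibroblast and osteoblast markers reached 10 CPM. SPARC averaged 6.04 CPM, RUNX2 4.32 CPM and COL1A1 3.42 CPM, and LUM had no count. Of 6 measured neuroendocrine markers, ENO2 was at 42.99 ± 4.54 CPM, galanin (GAL) had 14 counts, and NCAM1 and SYP had 1 count each. CHGB and SCG2 had none. Summed over its members, the endothelial list ran from 24.4 to 27.1 CPM in single libraries, the fibroblast and osteoblast list from 12.3 to 23.4 CPM and the neuroendocrine list from 44.2 to 52.1 CPM. Among 3 measured cancer-testis antigens, PRAME was at 16.9 ± 0.829 CPM, and MAGEA12 and PAGE1 had no count.

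Of 16 measured tumour suppressors and cell cycle inhibitors, 13 reached 10 CPM. CDKN2A was the highest at 136, 162 and 156 CPM, followed by the chromatin remodeller CHD1 at 107 ± 6.92 CPM, CDKN2B at 54.6 ± 1.92 CPM and NF1 at 30.9 ± 6.66 CPM. Among 18 oncogenes and signalling genes, 13 reached 10 CPM. CCND1, cyclin D1, was at 591, 568 and 660.1 CPM and CCND2 had no count. MYC was at 197, 178 and 171 CPM, the ETS factor ETV4 at 95.4 ± 6.07 CPM and AKT1 at 80.96 ± 3.27 CPM. CCND1 exceeded MYC 2.08 ± 0.28-fold per kilobase.

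AP-1 is a dimer of JUN and FOS family proteins. FOSL1 was the highest of 11 members at 714, 665 and 585 CPM, with library 3 the lowest. JUN was at 96.3 ± 5.84 CPM, JUND at 78.4 ± 12.8 CPM and FOSL2 at 39.2 ± 4.41 CPM. FOS had no count in any library and FOSB had 1. FOSL1 exceeded JUN 12.8 ± 1.2-fold per kilobase.

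Of Wnt genes, the antagonist DKK1 and the receptor FZD8 were the highest of their lists. In the list of secreted modulators, which counts DKK1 and CTHRC1 and had 5 measured members, the other 3 were low: NOTUM had 3 counts and SFRP1 and RSPO3 had none. Of 22 measured ligands and receptors, 12 reached 10 CPM, with medians of 12.2 CPM and 1.72 CPM per kilobase. FZD8, a frizzled receptor, was at 497, 533 and 473 CPM. FZD4 and FZD6 were at 66.7 ± 5.73 CPM and 54.3 ± 9.50 CPM, and FZD8 exceeded FZD4 13.9 ± 1.9-fold per kilobase. The highest ligand by CPM was WNT5A, which signals mostly without beta-catenin, at 45.7, 34.4 and 48.7 CPM, followed by WNT7A at 34.9 ± 2.50 CPM. Per kilobase WNT7A was at 7.63 ± 0.546 and WNT5A at 5.80 ± 1.02 CPM per kilobase. The co-receptors that DKK1 binds, LRP5 and LRP6, were at 41.6 ± 1.78 CPM and 7.46 ± 3.61 CPM. The kinase-related Wnt receptors RYK and ROR1 were at 36.5 ± 4.16 CPM and 18.9 ± 1.06 CPM. Of 11 planar polarity genes, 6 reached 10 CPM, led by DVL1 at 96.9, 127 and 115 CPM, SCRIB at 93.5 ± 4.24 CPM, VANGL1 at 34.9 ± 6.25 CPM and DVL3 at 25.7 ± 3.29 CPM.

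Of 15 measured bone metastasis and osteoclast factors, 7 reached 10 CPM. The highest were secreted antagonists. Follistatin (FST), which binds activins, was at 716, 758 and 737 CPM, and noggin (NOG), which binds BMPs, was at 139, 147 and 141 CPM. The Notch ligand JAG1 was at 88.5 ± 2.65 CPM and the matricellular protein CCN2 at 52.4 ± 4.87 CPM. PTHLH, the parathyroid hormone-related protein that promotes bone resorption, was at 9.23 ± 3.36 CPM from 5, 11 and 11 counts. The chemokine receptor CXCR4 averaged 4.17 CPM, and TNFRSF11B, which encodes osteoprotegerin, the decoy receptor for RANKL, had no count.

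By CPM, COL6A1 and COL6A2 of collagen VI were the highest collagens. Of 18 collagens, 10 reached 10 CPM, with COL6A1 at 424, 412 and 366 CPM, COL6A2 at 236, 208 and 214 CPM, COL6A3 at 88.1 ± 16.02 CPM and the transmembrane collagen gene COL13A1 at 186 ± 23.5 CPM. COL1A1 and COL3A1, the fibrillar collagens of bone and stroma, had 10 and 2 counts. Of 18 laminins and other matrix genes, 12 reached 10 CPM. LAMB3 encodes a chain of laminin-332 of epithelial basement membranes. LAMB3 was at 159.9 ± 10.995 CPM, beside LAMA5 at 141 ± 3.11 CPM and LAMB1 at 104 ± 10.2 CPM. The integrin list had 10 of 13 members at 10 CPM or more. ITGA3 was at 267 ± 23.9 CPM and ITGB1 at 258 ± 30.1 CPM, and ITGA6, a laminin receptor subunit, was at 121 ± 10.5 CPM. Per kilobase ITGB1, the common beta subunit, was at 42.9 ± 5.01 and ITGA3 at 27.3 ± 2.44 CPM per kilobase.

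Plasminogen activators and TIMP1 were the highest by CPM of 21 proteases and inhibitors, of which 14 reached 10 CPM. PLAT, tissue plasminogen activator, was at 349, 352 and 345 CPM, and PLAU, urokinase, was at 335, 351 and 298 CPM. The metalloproteinase inhibitor TIMP1 was at 319, 340.2 and 328 CPM and TIMP3 had no count. Per kilobase TIMP1 was at 213 ± 7.03, PLAU at 111 ± 9.18 and PLAT at 52.7 ± 0.53 CPM per kilobase, so PLAU lay above PLAT on that scale. The urokinase receptor gene PLAUR was at 44.9 ± 6.89 CPM. Of 6 measured genes of the MMP family, MMP1 and MMP13 were the highest, at 13.9 ± 6.44 CPM and 12.4 ± 2.81 CPM. MMP14 was at 9.67 ± 0.567 CPM, MMP9 had 1 count and MMP10 had none. The metalloproteinases ADAM9 and ADAM10 of the same list were higher, at 55.3 and 44.1 CPM, and ADAM17 was at 4.03 CPM. Cathepsin D (CTSD) was at 158 ± 20.5 CPM, and 60.1% of its 75-base stretches also occur in the overlapping model AC068580.4.

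Growth receptors ranged widely. Beside AXL, the ephrin receptor EPHA2 was at 312, 320.2 and 297 CPM, the hepatocyte growth factor receptor MET at 261, 263 and 267 CPM and EGFR at 154, 112 and 122 CPM. Per kilobase EPHA2 was at 74.4 ± 2.87, AXL at 67.3 ± 9.82 and MET at 37.4 ± 0.455 CPM per kilobase, and EGFR was below these. ERBB2 was at 6.24 ± 3.39 CPM and FGFR2 and FGFR3 had no count. Of 16 ligands, 11 reached 10 CPM. GDF15, a stress-induced TGF-beta family ligand, was at 111 ± 7.13 CPM, midkine (MDK) at 110.4 ± 24.04 CPM, the EGFR ligand AREG at 106 ± 8.61 CPM and VEGFC at 58.2 ± 6.86 CPM. The ligands had a median of 4.36 CPM per kilobase. Of 21 cytokines and related genes, 8 reached 10 CPM, and their median was 1.14 CPM per kilobase. NFKBIA, the NF-kB inhibitor, was at 85.6 ± 4.87 CPM, IL18 at 69.4 ± 3.96 CPM, and the neutrophil chemokines CXCL1 and CXCL8 at 43.6 ± 8.94 CPM and 39.2 ± 4.51 CPM. IL1B was at 15.5 ± 6.19 CPM, IL6 had 1 count, and IL1RN, CSF2 and CSF3 had none.

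S100 proteins and annexins had 18 of 21 members at 10 CPM or more, 12 of them at 100 CPM or more, and medians of 126 CPM and 34.7 CPM per kilobase. ANXA2, a membrane-binding annexin, was at 1524, 1592 and 1453 CPM and its partner S100A10 at 872, 767 and 776 CPM. ANXA7 was at 660.0 ± 48.9 CPM. S100A6 exceeded S100A10 8.06 ± 0.55-fold per kilobase. Among mucosal peptides, TFF1, a trefoil peptide secreted with mucus, was at 393, 442 and 389.6 CPM and TFF2 at 155, 145 and 141 CPM, while TFF3 had 0, 0 and 5 counts. AGR2, a folding enzyme of mucous cells, was at 92.7 ± 22.2 CPM and the protease inhibitor SLPI at 78.4 ± 5.60 CPM. The incretin gene GIP had 3, 6 and 8 counts.

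Of 13 genes of class I antigen presentation, 8 reached 10 CPM. B2M, the light chain, was at 809, 843 and 816 CPM. HLA-C was at 116 ± 10.9 CPM and HLA-B at 95.4 ± 2.20 CPM. TAP1, one chain of the peptide transporter, averaged 1.64 CPM while TAP2 was at 23.05 ± 4.46 CPM. CD274, which encodes PD-L1, had 4 counts in all.

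The proliferation list had 16 of 18 members at 10 CPM or more and a median of 131 CPM. PCNA, the sliding clamp, was at 363, 381 and 379.6 CPM, BIRC5 at 311, 264 and 290.4 CPM, TOP2A at 258 ± 21.7 CPM and RRM2 at 212 ± 1.95 CPM. The 2 low members were MCM2 at 4.53 ± 1.84 CPM and TYMS at 2.17 ± 2.86 CPM. Of the 75-base stretches of TYMS, 47.3% occur on the opposite strand in ENOSF1, which was at 19.5 CPM. For MCM2, 25.3% of such stretches occur on the opposite strand in AC023593.1, a gene not analysed here. Glycolysis had 18 of 20 members at 10 CPM or more. ENO1, enolase, was at 3122, 3272 and 2921 CPM, LDHA, lactate dehydrogenase A, at 2321, 2268 and 2131 CPM, PGK1 at 1294 ± 53.8 CPM and PKM at 1097 ± 63.1 CPM. GAPDH was at 120.3, 112 and 115 CPM, and ALDOA had 1 count in all. For ALDOA, 48.7% of 75-base stretches also occur on the same strand in AC093512.2, a gene not analysed here. Of the stretches of GAPDH, 1.55% also occur in another gene on the same strand.

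All 16 chaperones reached 10 CPM, with a median of 396 CPM. HSP90AA1 was followed by HSP90AB1 at 2061, 1781 and 2235 CPM, HSP90B1 of the endoplasmic reticulum at 1477, 1244 and 1394 CPM and the mitochondrial chaperonin HSPD1 at 877, 804 and 809 CPM. Library 2 was the lowest for all 4. HSPA1A and HSPA1B, which share 71.2% and 70.1% of their 75-base stretches with each other, were at 55.3 and 35.2 CPM and cannot be told apart over those stretches.

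The mitochondrial genome encodes respiratory chain subunits and its own ribosomal RNAs. MT-RNR2, the large ribosomal RNA, was at 48493, 60287 and 73279 CPM. It was the highest gene in each library, and library 3 was above library 2, which was above library 1. The small ribosomal RNA MT-RNR1 was at 5111, 4449 and 5367 CPM. Of the protein genes, MT-CO2 was at 16570.3, 16008 and 15016 CPM, MT-ND4 at 16513, 14797 and 14702 CPM and MT-CO3 at 10979, 10508 and 10005 CPM. MT-CO2 exceeded MT-CO1, another subunit of the same enzyme, 7.94 ± 0.78-fold per kilobase. Per kilobase the protein genes ran from MT-CO2 at 23194 ± 1151 and MT-ATP6 at 15119 ± 629 down to MT-ND5 at 1893 ± 239 and MT-ATP8 at 892 ± 178 CPM per kilobase, with MT-CO1 at 2932 ± 146. Copies of mitochondrial genes in the nuclear genome share sequence with them: 36.6% of the 75-base stretches of MT-CO1, 34.4% of those of MT-ND2 and 28.0% of those of MT-ATP6 also occur in nuclear copies. The MT-ATP6 copy MTATP6P1 was itself at 1095.5 CPM, from 3173 counts, while the MT-CO1 copy MTCO1P12 had 61 counts and the MT-ND2 copy MTND2P28 had 41.

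Long non-coding RNA genes took 1.49% of counts, and 951 of 4850 listed had a count in every library. MALAT1, a nuclear speckle RNA, was at 3929.8, 3492 and 3873 CPM at rank 17 and held 25.3% of the long non-coding counts. LOXL1-AS1 was at 441, 494 and 454 CPM and LINC02582 at 457, 464 and 441 CPM. ZFAS1, NORAD and SNHG6 were at 324 ± 22.8 CPM, 284 ± 5.93 CPM and 160.1 ± 16.6 CPM. OTUD6B-AS1, MIR100HG, PSMA3-AS1 and GAS5 lay between 132 and 145 CPM, and their library values overlapped. SNHG6 overlaps another gene, and 50.7% of its 75-base stretches occur on the opposite strand in MCMDC2, which had no count.

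Whether a level differed between the 3 libraries beyond counting error was tested for each gene with a chi-square test of its counts against the library totals, adjusted by the Benjamini-Hochberg method. Of 9906 genes with an expected count of at least 5 in each library, 51 were called at an adjusted p under 0.05, which is 0.515%. The count was 17 without library 1, 31 without library 2 and 31 without library 3. Without adjustment, 801 genes (8.09%) had a p under 0.05. The common biological coefficient of variation in edgeR was 5.25% over 9548 genes. Of 291 list genes tested, 15 were called, and 10 of these were among the 13 mitochondrial protein genes. DKK1 was the 1 marker called, at an adjusted p of 0.0103 by this test and a spread beyond counting error of 6.94%. The other 4 markers gave adjusted p values of 0.66 to 0.94. In the called genes, library 1 was the highest in 32, library 3 in 14 and library 2 in 5, while library 2 was the lowest in 26.

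The highest spread among called genes of at least 50 CPM was in MTRNR2L12, a nuclear copy of MT-RNR2, at 89.1, 98.6 and 407 CPM from 80, 89 and 451 counts. Library 3 was above the other two, and library 3 was also the highest for MT-RNR2. Of the called histone genes, H2AC20 was at 64.6, 48.8 and 179 CPM and H1-3 at 195, 107 and 265 CPM. Both were highest in library 3 and lowest in library 2. The other called histone genes, with a lower spread, had other orders. H1-2, at 252, 378 and 412 CPM, was lowest in library 1, and H4C3, at 560, 439 and 422 CPM, was highest there. GOLGB1, a Golgi matrix protein, was at 217, 113 and 227 CPM, with library 2 below the others. The tRNA-modifying THUMPD3, the zinc finger protein gene CHURC1, the pseudouridine synthase TRUB2 and the chaperonin subunit CCT5 were each highest in library 1. For CCT5 the values were 312, 174 and 191 CPM. The part of RNA handling or library preparation in these differences was not tested.

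**Figure D5:**
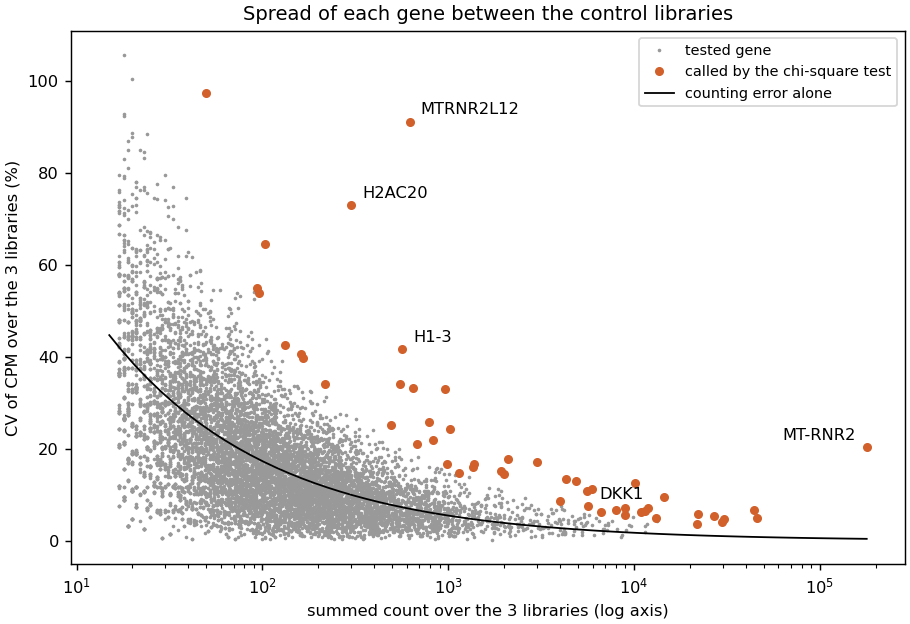
Coefficient of variation of CPM over the 3 libraries (%) against the summed count (log axis) for the 9906 tested genes, with the 51 called genes as large points and the line that counting error alone would give. MTRNR2L12, H2AC20 and H1-3 lie far above the line, and DKK1 lies slightly above it.

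Coding genes that share most of their sequence with another gene had a lower median, but the levels did not fall steadily with the share. Among 9088 coding genes with under 1% of their 75-base stretches in another gene on either strand, the median was 17.1 CPM and 8.41% had no count. Among 3765 with 1% to 25%, the median was 18.02 CPM and 5.95% had no count, and among 738 with 25% to 50% it was 8.68 CPM and 9.76%. Among 525 with 50% or more, the median was 1.34 CPM and 15.6% had no count. The part of this overlap in any single level was not tested.

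Promoters of genes at different levels were compared by the letters they hold, in RefSeq promoters of build GRCh38.p14 matched by symbol to 11231 of 14110 coding nuclear genes. The letters TATAAA on the gene's own strand, 45 to 20 bases before the start, were in 2.27% of all promoters. They were in 9.64% (8 of 83) of genes at 1000 CPM or more, 2.44% at 100 to 1000 CPM, 1.06% at 10 to 100 CPM, 2.38% at 1 to 10 CPM and 5.11% under 1 CPM. The share was thus lowest in the middle of the range and higher at both ends. The letters GGGCGG or their reverse complement, anywhere in the 250 bases before the start, were in 64.5% of all promoters and in 47.3% of genes under 1 CPM. CCAAT on either strand was in 34.6% of all, and TGACTCA, the AP-1 letters, on either strand in 2.94% of all. TGACTCA was in 2.41% (2 of 83) at 1000 CPM or more, between 2.31% and 3.17% in the 3 middle ranges and 4.74% (90 of 1897) under 1 CPM. DKK1 and ANXA2 were among the 8 genes at 1000 CPM or more with TATAAA, and FZD8, the leading Wnt receptor, held the letters too. The 100 bases before their starts are shown 5′ to 3′ on the gene's strand with TATAAA in capitals, because their levels are described above. The DKK1 stretch is chr10:52314181-52314280 on the plus strand, the FZD8 stretch is chr10:35642297-35642396 on the minus strand and the ANXA2 stretch is chr15:60397987-60398086 on the minus strand.
DKK1: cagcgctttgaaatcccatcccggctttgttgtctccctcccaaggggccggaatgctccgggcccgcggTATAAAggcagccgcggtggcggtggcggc
FZD8: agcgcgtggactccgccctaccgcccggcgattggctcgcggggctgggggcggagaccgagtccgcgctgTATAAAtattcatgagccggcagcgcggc
ANXA2: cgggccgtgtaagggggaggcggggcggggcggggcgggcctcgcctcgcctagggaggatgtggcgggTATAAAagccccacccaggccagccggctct
In DKK1 the first T lies 30 bases before the start, in FZD8 29 bases and in ANXA2 31 bases. These letters describe the windows and were not tested against the levels.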

How the data were processed

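The authors deposited 1 table of raw read counts per Ensembl gene, with symbols, classes and chromosomes, for 9 libraries of 75 bp single reads from a NovaSeq6000, per the labels. Trim Galore and the build GRCh38 are named in the submitters' processing notes. Not given in the sources used here are the aligner, the counter, its strand setting and its annotation, so genes that overlap or have near copies are uncertain. The table lists genes with a count in at least 1 of the 9 libraries.

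Only the 3 control columns were used. Counts were divided by library totals to give CPM. Exon lengths (union of exons), positions and transcripts came from GENCODE v29, in which 21258 of 21726 identifiers were found. Genes that share 75-base stretches were found by comparing the longest transcript of each gene with all transcripts of other genes. Promoters came from RefSeq. The spread between libraries was tested on counts with a chi-square test in scipy 1.17.1, tried on simulated counts first. TMM and the dispersion came from edgeR 4.0.16 and size factors from DESeq2 1.42.0 in R 4.3.3. No test between conditions was made.

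The genes named by rule were the 5 markers, the 10 highest mitochondrial and 25 highest other genes by CPM, and the 15 highest protein-coding genes by CPM per kilobase with a summed count of at least 50. They also included the 10 highest long non-coding genes, the 4 highest members of each list with its defining members under 1 CPM, and the 8 called genes of at least 50 CPM with the highest spread beyond counting error. Other list members, and genes beside a named one, were picked after their values were seen. The members and the lists were chosen with earlier results of these data known. Alternatives tried were the scaling, the total without mitochondrial genes, the length measure, the thresholds and leaving out each library. Some list members are counted in their lists but are not reported here by name.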

Additional observations from a re-analysis of the deposited data

How the results depend on the processing

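With the total taken without mitochondrial genes, which raises every other level, VIM was at 2749.6 CPM, DKK1 at 2310.2, KRT81 at 2119.8, KRT18 at 735 and CTHRC1 at 134, and the 10 and 100 highest genes held 4.89% and 22.5% of counts. Under TMM or DESeq2 scaling, the 5 markers and 170 other named genes moved by less than 1 SD. Ranks depended on the length measure, and the folds per kilobase between genes were computed with the union of exons alone. Per kilobase of exon VIM was at rank 99, KRT81 at 41, KRT18 at 231 and CTHRC1 at 726. Per kilobase of the longest transcript they were at 77, 68, 213 and 728, and DKK1 was at 53. Among protein-coding genes alone VIM was at rank 33. Leaving out 1 library gave KRT81 ranks of 50 to 55 by CPM. At 50 CPM, 160 list genes passed, against 264 at 10 CPM. The count of genes that differed between libraries was 51 with all 3 libraries and 17 to 31 with 1 left out (17 without library 1, 31 without library 2 and 31 without library 3), where the test has fewer counts. No paired analysis was possible because 1 line alone was described and no groups were compared. At these depths a gene at 0 in 1 library may have had up to 2.71 to 3.34 CPM there, so the order of genes at a few counts is not known.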

Other observations

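Levels of coding genes were also summarised by chromosome, as values with no test. On chromosome 20, 70.4% of 379 listed coding genes reached 10 CPM, with a median of 34.7 CPM, the highest of the nuclear chromosomes on both measures. Chromosome 8, which carries MYC and CTHRC1, was next by both, with 64.4% of 486 genes and a median of 23.0 CPM. Chromosome 19 was the lowest on both, with 50.7% of 1035 genes and a median of 10.4 CPM. The chromosome of each gene is the one given in the deposited table.

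Over 6838 protein-coding genes with a summed count of at least 50, CPM and CPM per kilobase were related across genes at a Spearman rho of 0.821, and CPM and exon length at -0.143. Genes are not independent replicates, and both measures share the same counts.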
